A study of Capra hircus with 24 samples.

Results

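The comparison described here sets October against June in dermal papilla cells of the secondary hair follicle of male cashmere goats (Capra hircus), with 3 RNA sequencing libraries in each month. These 6 libraries were taken, by follicle type, month and sex as the labels give them, from a series of 24 libraries that holds 8 groups of 3. The October group is labelled anagen, the phase of active hair growth, and the June group early anagen, when growth begins. Both groups were labelled male and secondary, and no treatment, genotype or age is named in the labels used here. A pair of similar comparisons served to show where this one differs: October against June in secondary papilla cells of females, and October against June in primary papilla cells of males, with 3 libraries per group in both. Growth stage goes with the month, and the effects of stage, of season and of separate collections cannot be told apart. Nor do the labels used here say whether the cells were cultured, whether animals were pooled, or whether the libraries of a group came from separate animals. They call them biological replicates, and every p-value below therefore measures only the spread between libraries, which may be partly technical.

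The dermal papilla is a cluster of specialised fibroblasts at the base of the hair follicle. It sends growth factors, among them fibroblast growth factors, insulin-like growth factors, Wnt agonists and BMP inhibitors, to the epithelial matrix cells above it, which divide and form the hair shaft. In cashmere goats the secondary follicle makes the fine undercoat fibre and is active in a seasonal cycle set by day length, while the primary follicle makes the coarse guard hair. SOX2, a transcription factor, marks the papilla of some mouse hair types and not of others.

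Expression values are the normalised values deposited by the authors, with no unit named and no read depth known. Tests with limma covered the 13049 of 20326 genes that had 1 or more in a minimum of 3 among the 24 libraries. They used log2(value + 1), where changes of genes with low values come out too small. All differences below are October minus June on that scale, and a gene is called higher or lower where its Benjamini-Hochberg adjusted p was under 0.05. Values summed to between 1018330 and 1045876 in the October libraries and between 959766 and 983239 in the June libraries. Correlations across genes, which are not independent replicates, put the October libraries closer to a group of the other follicle type than to the June ones. Their mean r was 0.967 (0.965 to 0.968 over 9 pairs) with the June libraries of the same follicle type and sex. It was 0.992 (0.991 to 0.992 over 9 pairs) with the October libraries of the primary follicle of males. With the October libraries of secondary cells of females the mean r was 0.979 (0.977 to 0.981 over 9 pairs), and within the October group itself 0.996. Follicle type is taken from the labels and was not tested. SRY, the male-determining gene, was listed at 0 in all 24 libraries, so it did not serve to check the sex labels. Of the defining papilla markers, CORIN, a membrane protease, did not reach the level for testing, with 0.10, 0.15 and 0.23 in October, against 0.11, 0.10 and 0.23 in June. ALPL, alkaline phosphatase, stood at 0.03, 0.09 and 0.16 in October, against 0.20, 0.11 and 0.08 in June, so both were close to 0 in the 6 libraries.

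The growth factors FGF7, IGF1 and IGF2, the transcription factor SOX2 and the epithelial keratins KRT5, KRT14 and KRT8 were higher in October. Most tested chemokine, interferon and mitosis genes were lower, with CXCL8 and IL6 among the largest falls. In all, 7378 of the 13049 tested genes were called, which is 56.5% (limma, Benjamini-Hochberg). They comprised 3304 higher genes (25.3%) and 4074 lower genes (31.2%). These shares of all genes are the background for every month count of list members below. A change of at least 2-fold as well was found for 823 genes, or 6.31%, of which 235 were higher (1.8%) and 588 lower (4.51%). The fold here is on the log2(value + 1) scale. The median difference over all tested genes was -0.015. After every library was rescaled to sum to 1000000 (a common library total), the split became 2323 higher and 5080 lower, and the median -0.093.

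SOX2 had 13.7, 15.1 and 13.9 in October, against 0.29, 0.22 and 0.27 in June (limma, log2 difference 3.59, SE 0.14, adjusted p = 1.02e-15). Every June library was below 1 and every October library above 13. FGF7, a growth factor for epithelial cells, had 78.4, 101 and 92.3 in October, against 17.3, 15.7 and 15.3 in June (log2 difference 2.41, SE 0.087). Of the insulin-like growth factors, IGF1 had 26.7, 29.9 and 32.0 in October, against 5.61, 4.99 and 4.36 in June (log2 difference 2.35, SE 0.095), and IGF2 had 10.2, 12.5 and 11.9 in October, against 0.50, 0.60 and 0.82 in June (log2 difference 2.94, SE 0.11). None of the groups overlapped for these 4 genes. Among called genes that carry a symbol and average 5 or more in either month, they belong to the 15 with the largest rises, and the others follow. SERPINF1, which encodes the secreted protein PEDF, an inhibitor of vessel growth, had 81.8, 84.6 and 85.3 in October, against 4.12, 5.16 and 5.35 in June (log2 difference 3.86, SE 0.076). NR2F2, the nuclear receptor COUP-TFII, had 65.4, 71.3 and 75.5 in October, against 8.60, 9.18 and 8.55 in June (log2 difference 2.87, SE 0.06). The muscle genes DES, for the intermediate filament desmin, and ACTG2, for a smooth muscle actin, also rose. DES had 84.4, 68.8 and 69.0 in October, against 4.66, 5.18 and 5.24 in June (log2 difference 3.63, SE 0.075), and ACTG2 had 2464, 2241 and 2280.3 in October, against 429, 456 and 487 in June (log2 difference 2.35, SE 0.058). IL33, an alarmin cytokine, had 5.41, 7.56 and 7.12 in October, against 0.64, 0.52 and 0.40 in June (log2 difference 2.33, SE 0.14). The others among the 15 largest rises were PCDH7, a protocadherin (log2 difference 2.46, SE 0.081), CNGA3, a cyclic nucleotide gated channel (log2 difference 2.50, SE 0.07), and PEG10, an imprinted gene derived from a retrotransposon (log2 difference 2.31, SE 0.051), together with the keratins KRT5, KRT14 and KRT8. For all of these 15 every October library lay above every June library. They were taken for the size of their change, which makes that likely, and the share over all tested genes was not counted.

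The epithelial keratins KRT5, KRT14 and KRT8 were among these rises. KRT5, the keratin of basal epithelial cells and the largest of the 15 rises, had 19.9, 17.3 and 18.3 in October, against 0, 0.05 and 0.02 in June (log2 difference 4.25, SE 0.089). Its partner KRT14 had 13.3, 9.08 and 9.51 in October, against 0.17, 0.17 and 0.09 in June (log2 difference 3.33, SE 0.095), and the simple epithelial keratin KRT8 had 8.38, 7.51 and 6.95 in October, against 0.63, 0.79 and 0.66 in June (log2 difference 2.34, SE 0.087). Of 13 tested genes in a core list of epithelial markers, 10 were higher and 1 lower, beside 25.3% and 31.2% of all genes. The summed level of that list was 37.2 to 45.3 in the October libraries and 6.49 to 7.95 in the June libraries. Apart from KRT5 and KRT14 its October values were low, with SFN, an epithelial 14-3-3 protein, at 3.39, 1.84 and 3.61, EPCAM at 0.68, 0.59 and 0.71 and CDH1, E-cadherin, at 0.78, 1.09 and 0.98 in October. The epithelial regulators TP63 and GRHL2 did not reach the level for testing. PERP, a desmosome protein, went the other way, with 1.00, 1.17 and 1.28 in October, against 3.48, 3.90 and 2.87 in June. A wider list of keratinocyte and hair matrix genes had 17 higher and 7 lower of 31 tested. At 2-fold or more this list had 7 higher and 3 lower, beside 1.8% and 4.51% of all genes. Its summed level was 185 to 201 in the October libraries and 157 to 162 in the June libraries. That sum includes KRT5, KRT14 and KRT8. It also includes MSX2 (log2 difference 1.39), a homeobox gene counted below among dermal transcription factors, so the sum is not keratinocyte signal alone. These markers changed together with the genes described above and below, and their part in those results was not tested. In bulk samples fewer cells of a type and less RNA per cell cannot be told apart.

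**Figure D1:**
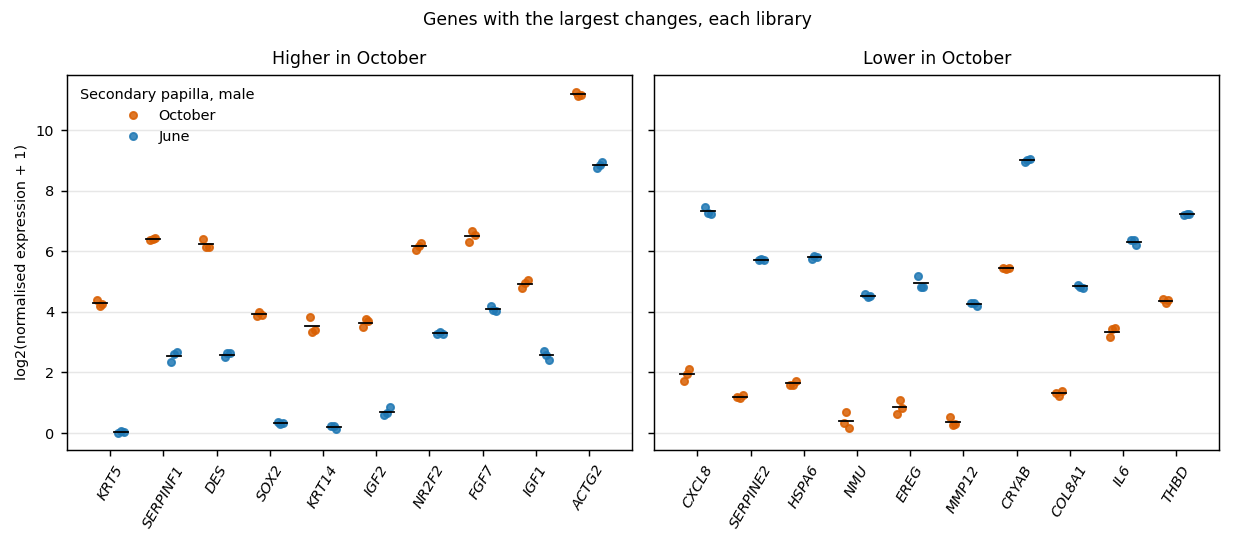
Values of 20 of the genes with the largest changes in each library, as log2(normalised expression + 1), with October (orange) left of June (blue) in secondary papilla cells of males. Points are libraries, 3 per month, and black lines are means of the 3. The 10 at the left rose while the 10 at the right fell. No October library overlaps a June library for any of the 20 genes, which their choice by size of change makes likely. The share over all tested genes was not counted.

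CXCL8, the neutrophil-attracting chemokine interleukin 8, showed the largest fall by the same rule, with 2.32, 2.85 and 3.37 in October, against 176, 153 and 149 in June (limma, log2 difference -5.39, SE 0.12, adjusted p = 3.61e-20). SERPINE2, protease nexin 1, an inhibitor of thrombin and plasminogen activators that is counted among papilla signature genes, had 1.27, 1.21 and 1.41 in October, against 51.0, 52.5 and 51.9 in June (log2 difference -4.52, SE 0.093). HSPA6, an inducible heat shock protein, had 2.02, 2.03 and 2.30 in October, against 52.2, 56.7 and 55.2 in June (log2 difference -4.16, SE 0.10), and CRYAB, a small heat shock protein, had 42.7, 41.8 and 43.0 in October, against 489.8, 512 and 527 in June (log2 difference -3.55, SE 0.084). For each of these 4 genes the October libraries lay far below every June library. EREG, which encodes epiregulin, a ligand of the epidermal growth factor receptor, had 0.55, 1.14 and 0.77 in October, against 35.6, 27.1 and 27.5 in June (log2 difference -4.10, SE 0.12). The matrix protease MMP12 had 0.43, 0.21 and 0.23 in October, against 18.6, 18.8 and 17.4 in June (log2 difference -3.91, SE 0.13), and MMP3, or stromelysin, had 1.70, 1.72 and 2.09 in October, against 22.9, 19.7 and 21.2 in June (log2 difference -2.97, SE 0.13). Both were near the lower limit of the scale in October. IL6, an inflammatory cytokine, had 7.93, 9.87 and 9.94 in October, against 81.2, 82.3 and 73.0 in June (log2 difference -2.97, SE 0.15). COL8A1, a short chain collagen, had 1.53, 1.34 and 1.61 in October, against 28.9, 27.5 and 26.5 in June (log2 difference -3.52, SE 0.083). THBD, thrombomodulin, had 20.6, 18.5 and 20.0 in October, against 147, 149 and 149 in June (log2 difference -2.85, SE 0.06), and STC2, stanniocalcin 2, which inhibits the IGF-releasing protease PAPPA, had 4.97, 4.86 and 4.85 in October, against 41.4, 39.9 and 40.4 in June (log2 difference -2.82, SE 0.066). The months were again apart in every library. NMU, neuromedin U, had 0.25, 0.62 and 0.13 in October, against 22.9, 21.5 and 21.8 in June (log2 difference -4.13, SE 0.18). SST, somatostatin, was listed at 0 in the 3 October libraries and at 13.8, 12.1 and 14.5 in the June libraries, so no fold is given. CTSL, a lysosomal cathepsin (log2 difference -2.83, SE 0.14), and FBXO2, a ubiquitin ligase subunit that recognises glycoproteins (log2 difference -2.76, SE 0.14), completed the 15 largest falls. The groups overlapped for none of these 15, which their choice by size of change makes likely. Again the share over all tested genes was not counted.

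Genes often studied in papilla cells did not move one way. A list of 28 tested papilla signature genes had 10 higher and 11 lower members, with a median difference of -0.06 that is close to that of all genes. With a common library total 8 were higher and 15 lower, with a median of -0.15, beside -0.093 for all genes. Beside SOX2, FGF7 and IGF1, its higher members included INHBA, an activin subunit, with 279, 297 and 319 in October, against 63.5, 62.8 and 70.2 in June (log2 difference 2.17, SE 0.053), and PAPPA, a protease that frees insulin-like growth factors, with 14.2, 13.3 and 13.9 in October, against 3.08, 2.81 and 3.18 in June (log2 difference 1.88, SE 0.089). VCAN, the proteoglycan versican, was higher by 0.27, with 307, 308 and 290.3 in October, against 259, 244 and 248 in June. FGF10, a relative of FGF7, was higher by 0.42, with 5.18, 5.36 and 5.39 in October, against 4.13, 3.79 and 3.26 in June. On the lower side, WIF1, a secreted Wnt inhibitor, had 3.40, 2.19 and 2.79 in October, against 9.73, 10.1 and 8.44 in June (log2 difference -1.47, SE 0.13). CRABP1, a retinoic acid binding protein, had 2.22, 1.27 and 1.77 in October, against 3.30, 3.16 and 6.36 in June (log2 difference -0.90, SE 0.20). RSPO2, an R-spondin that amplifies Wnt signals, had 5.90, 7.19 and 5.99 in October, against 8.80, 8.79 and 8.70 in June (log2 difference -0.41, SE 0.061), and BMP4 had 64.0, 57.3 and 64.1 in October, against 77.5, 86.1 and 86.7 in June (log2 difference -0.43, SE 0.081). LEF1, a Wnt-responsive transcription factor, fell by 0.20, with 9.54, 9.26 and 9.96 in October, against 10.3, 11.9 and 11.3 in June, and this call was lost with median-of-ratios scaling (limma, adjusted p = 0.0668). NOG, the BMP inhibitor noggin, was not called, with 1.49, 0.91 and 1.43 in October, against 2.39, 1.37 and 1.58 in June (limma, difference -0.28, adjusted p = 0.0932). Nor was RSPO3, another R-spondin, with 175, 179.6 and 173 in October, against 176, 175 and 174 in June (limma, difference 0.01, adjusted p = 0.896). For these 2 genes the groups overlapped. FGF5, PRLR, MTNR1A, HHIP and PROM1 did not reach the level for testing.

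Growth factor ligands and their receptors changed in both directions. In the insulin-like growth factor axis, 10 were higher and 6 lower of 20 tested, with a median difference of 0.16. With a common library total 8 were higher and 7 lower. IGF2BP2, an RNA-binding protein of IGF2 messages, had 36.0, 39.7 and 39.7 in October, against 7.47, 7.11 and 6.63 in June (log2 difference 2.29, SE 0.055). The binding protein IGFBP2 was higher by 0.88, with 3808, 3267 and 3652 in October, against 1814, 1929.5 and 2060.4 in June. Among 17 tested FGF genes, 5 were higher and 7 lower, and the feedback inhibitors SPRY4 (-1.03) and SPRY2 (-0.91) and the transcription factor ETV4 (-0.71) were lower, while the inhibitor SPRY1 was higher by 1.04. FGFR1, the receptor with the highest level in the list, fell by 0.46. The EGF family had 3 higher and 3 lower of 10 tested, close to the shares of all genes, 25.3% and 31.2%. Its receptor EGFR had 15.2, 16.7 and 16.6 in October, against 5.99, 5.79 and 5.15 in June (log2 difference 1.37, SE 0.068). The ligands EREG and TGFA (-1.08) were lower. AREG, another ligand, was called too, and its values are not reported here. HGF, hepatocyte growth factor, had 13.6, 16.0 and 13.9 in October, against 3.66, 3.14 and 3.09 in June (log2 difference 1.85, SE 0.10), and its receptor MET was lower, with 11.1, 11.3 and 11.2 in October, against 27.0, 24.8 and 25.1 in June (log2 difference -1.13, SE 0.071). Of the 24 factors and receptors in the list of PDGF, VEGF and HGF genes, 7 were higher and 15 lower. The neurotrophic factor GDNF (-1.23) and the receptor tyrosine kinase NTRK2 (-1.08) were among the lower ones.

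The BMP, activin and TGF-beta list held 13 higher and 21 lower of 48 tested, and 9 higher and 25 lower with a common library total. All 4 ID genes, which are transcriptional targets of BMP signals and inhibit basic helix-loop-helix factors, were lower. ID1 had 87.3, 80.6 and 77.2 in October, against 308, 316 and 323 in June (log2 difference -1.94, SE 0.062), and ID3 had 47.5, 54.4 and 46.8 in October, against 150.5, 152 and 164 in June (log2 difference -1.63, SE 0.075). ID2 and ID4, named after their values were seen, differed by -1.42 and -1.04. The BMP family ligand GDF6 (-1.74) and the co-receptor TGFBR3 (-1.62) were lower as well. INHBA and BMPER, a secreted regulator of BMPs, were higher, BMPER with 7.09, 6.24 and 5.89 in October, against 1.12, 1.21 and 0.95 in June (log2 difference 1.82, SE 0.093). The inhibitor GREM1, which had one of the highest levels in the list, fell by 0.95, with 499.8, 514 and 516 in October, against 1017, 984 and 959.6 in June. Wnt ligands, Frizzled receptors and co-receptors had 11 higher and 9 lower of 30 tested, and 11 higher and 12 lower with a common library total. FZD1, a Frizzled receptor, had 199.7, 196 and 206 in October, against 92.6, 96.6 and 97.9 in June (log2 difference 1.06, SE 0.043), and the co-receptor ROR1 was higher by 1.04. WNT10B had 1.90, 2.10 and 1.55 in October, against 4.50, 4.84 and 5.51 in June (log2 difference -1.06, SE 0.094). Of the Wnt inhibitors and targets, 5 were higher and 11 lower of 21 tested, with a median difference of -0.15. SFRP1, a secreted Wnt antagonist, had 32.5, 36.7 and 37.0 in October, against 9.13, 8.15 and 8.30 in June (log2 difference 1.93, SE 0.057), in the opposite direction to WIF1. CCND1, cyclin D1, fell by 1.11, and AXIN2, a feedback gene of the pathway, was higher by 1.07 from a low level, with 2.22, 2.47 and 1.65 in October, against 0.51, 0.43 and 0.48 in June. Of 17 tested Notch genes, 3 were higher and 10 lower, led by HES4 (-1.48) and LFNG (-0.89). Hedgehog genes numbered 2 higher and 3 lower of 10 tested.

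Cell cycle genes were lower in October. Of 41 tested genes of mitosis and G2/M, 40 were lower and 0 higher, beside 31.2% of all genes lower, and the median difference was -0.86. The largest of these falls was that of ASPM, a spindle pole protein, with 3.50, 3.52 and 3.49 in October, against 9.67, 8.71 and 9.07 in June (log2 difference -1.17, SE 0.064). TOP2A, a topoisomerase of dividing cells, had 20.6, 20.1 and 20.6 in October, against 48.8, 45.4 and 45.2 in June (log2 difference -1.15, SE 0.069), and CDCA8, borealin of the chromosomal passenger complex, had 7.67, 6.54 and 6.85 in October, against 15.6, 15.7 and 16.2 in June (log2 difference -1.07, SE 0.09). PTTG1, securin, named after its values were seen, was the 1 member not called (limma, difference -0.09, adjusted p = 0.415). DNA replication and G1/S genes numbered 0 higher and 33 lower of 42 tested, with a median of -0.47. E2F1, the transcription factor that drives entry into S phase, had 7.78, 6.82 and 7.46 in October, against 13.9, 15.0 and 15.4 in June (log2 difference -0.92, SE 0.11), and RRM2, a ribonucleotide reductase subunit, fell by 0.76. A list of cell cycle inhibitors, p53 targets and lamin B1 had 7 higher and 12 lower of 29 tested, with a median of -0.13. With a common library total 4 were higher and 16 lower. Of its members, CDKN1A (p21) had 159, 143 and 149 in October, against 263, 275 and 272 in June (log2 difference -0.84, SE 0.046) and GADD45G fell by 1.75. CDKN2B (p15) had 23.4, 24.5 and 26.1 in October, against 9.56, 9.76 and 10.1 in June (log2 difference 1.25, SE 0.065).

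Genes of the cytosolic ribosome were higher: 68 were higher and 0 lower of 74 tested, with a median difference of 0.34. With a common library total 61 were higher and 2 lower, so the direction did not flip. The changes were small next to those of single genes, since RPL9 alone (1.75) passed 2-fold. RPL9 had 604, 611 and 579.5 in October, against 162, 183 and 186 in June, and reads of ribosomal genes can be shared with their many pseudogenes. Serine and one-carbon metabolism had 14 higher and 7 lower of 24 tested, including PHGDH, the first enzyme of serine synthesis, with 373, 338 and 344 in October, against 192, 196 and 209 in June (log2 difference 0.82, SE 0.067), and GCSH, of the glycine cleavage system (0.86). SHMT1, the cytosolic serine hydroxymethyltransferase, fell by 1.07. Cholesterol genes numbered 14 higher and 11 lower of 31 tested (12 and 12 with a common library total), led by DHCR7, a late enzyme of the pathway, with 34.6, 32.8 and 31.6 in October, against 15.1, 16.1 and 15.4 in June (log2 difference 1.04, SE 0.068), and HMGCS1 (0.74) among the higher ones, and by NPC2, a lysosomal sterol carrier (-0.88), among the lower. Fatty acid genes had 11 higher and 7 lower of 22 tested. Of 45 glycolysis and hypoxia genes, 12 were higher and 21 lower. The glucose transporter SLC2A3 had 131, 137 and 143 in October, against 54.6, 56.3 and 47.5 in June (log2 difference 1.36, SE 0.09), and the collagen prolyl hydroxylase P4HA1 was higher by 1.06. ANGPTL4, a secreted inhibitor of lipoprotein lipase, had 14.8, 12.2 and 12.4 in October, against 46.8, 50.3 and 50.0 in June (log2 difference -1.83, SE 0.079), and the enolase ENO2 fell by 1.22.

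Mitochondrially encoded genes took 9.93% ± 0.368 of the signal in the October libraries and 9.07% ± 0.320 in the June libraries (SD, n = 3 each). The October shares were 9.96, 10.3 and 9.55%, against 9.35, 9.13 and 8.72% in June. They did not overlap, and an exact two-sided permutation test gave p = 0.1, the smallest that 3 libraries against 3 allow. Nuclear genes of the respiratory chain had 7 higher and 6 lower of 41 tested, against 4 higher and 9 lower with a common library total.

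Many structural genes of the matrix were higher. Collagens had 16 higher and 5 lower of 25 tested, with a median of 0.43. The fibrillar collagen COL3A1 had 5234, 5308 and 5420.2 in October, against 1844, 1878 and 1902 in June (log2 difference 1.50, SE 0.033). COL5A2, which sets fibril width together with other type V chains, had 1372, 1358 and 1364 in October, against 477, 494 and 471 in June (log2 difference 1.50, SE 0.033), and COL1A2, with the highest level of the list, had 7725, 7181 and 7552 in October, against 3514, 3727 and 3757 in June (log2 difference 1.03, SE 0.052). Against them stood COL8A1, above, and COL5A3, which fell by 1.42. Of 53 matrix glycoproteins, laminins and lysyl oxidases, 32 were higher and 13 lower, with a median of 0.32. POSTN, periostin, a protein of growing and remodelling connective tissue, had 338, 371 and 342 in October, against 75.2, 71.0 and 72.8 in June (log2 difference 2.25, SE 0.055). LOX, the enzyme that cross-links collagen and elastin, had 1100.5, 1318 and 1264 in October, against 345, 321 and 341 in June (log2 difference 1.86, SE 0.068). FN1, fibronectin, had 9483, 9044 and 8969.6 in October, against 4943, 5062 and 5327 in June (log2 difference 0.84, SE 0.049). LAMA2, a laminin chain (2.14), and the elastic fibre proteins EFEMP1 (1.90) and MFAP5 (1.90) rose further, while SPARCL1 (-1.93) fell. Proteoglycans had 12 higher and 9 lower of 25 tested, and 10 higher and 10 lower with a common library total. The small leucine-rich proteoglycans PRELP, with 38.8, 37.3 and 38.3 in October, against 109, 113 and 117 in June (log2 difference -1.54, SE 0.052), and LUM, lumican (-1.37), and the hyaluronan receptor CD44 (-1.17) were lower, and the syndecan SDC2 was higher by 1.40.

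Proteases of the matrix and their inhibitors leaned the other way, with 13 higher and 21 lower of 39 tested and a median of -0.22. Next to MMP12 and MMP3, ADAM8 had 7.31, 6.43 and 7.30 in October, against 31.4, 33.5 and 37.9 in June (log2 difference -2.14, SE 0.10), and MMP2, a gelatinase and the most abundant protease of the list, had 1071, 979 and 1041 in October, against 1779.9, 1878 and 1902 in June (-0.85). The ADAMTS family genes ADAMTS6 (1.57) and ADAMTS4, with 20.5, 18.9 and 19.8 in October, against 7.18, 5.96 and 7.00 in June (log2 difference 1.43, SE 0.075), were higher. In the list of plasminogen, coagulation and serpin genes, 8 were higher and 9 lower of 19 tested, with a median difference of -0.06. F3, tissue factor, which starts coagulation, had 313, 349.9 and 336 in October, against 85.2, 81.4 and 79.5 in June (log2 difference 2.01, SE 0.054). PROS1, protein S, an anticoagulant, was higher by 1.75, and SERPINB1 fell by 1.72. The integrin chains ITGA4 (-1.93) and ITGA3 (-1.15) were lower and ITGB3 higher by 1.13, in a list with 7 higher and 9 lower of 23 tested.

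Contractile genes, which mark the dermal sheath and smooth muscle, had 7 higher and 7 lower of 22 tested, and 6 higher and 9 lower with a common library total. TPM1, a tropomyosin, had 12954, 12733 and 13002 in October, against 4547, 4614 and 4719.5 in June (log2 difference 1.48, SE 0.035), and MYLK, the myosin light chain kinase, was higher by 1.26. SYNPO2, an actin-binding protein, had 13.8, 13.7 and 14.8 in October, against 90.6, 91.6 and 95.4 in June (log2 difference -2.63, SE 0.051). TAGLN, transgelin, was not called, with 4839, 4357 and 4509.6 in October, against 4693, 4882 and 5112 in June (limma, difference -0.10, adjusted p = 0.141). Of 7 tested pericyte and smooth muscle markers, 2 were higher and 3 lower. Their summed level was 646 to 727 in the October libraries and 472 to 537 in the June libraries, and RGS5, ABCC9 and KCNJ8 did not reach the level for testing. PDGFRB, a receptor of mural cells and fibroblasts, fell by 0.38. DES is itself one of these 7 markers, so its rise is part of that sum. The part of the other markers in the rise of DES and ACTG2 was not tested.

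Among transcription factors of the dermis, 22 were higher and 19 lower of 49 tested, with a median difference of 0.05. With a common library total 13 were higher and 21 lower, with a median of -0.018, so the list had no direction that held. FOXD1 had 7.60, 8.22 and 8.72 in October, against 1.17, 0.90 and 1.15 in June (log2 difference 2.15, SE 0.075), EBF3 was higher by 1.77, and the highest member PRRX1, a mesenchymal homeobox gene, was higher by 0.19, a call that was lost with a common library total (limma, adjusted p = 0.156). DLX3, a homeobox gene, had 1.82, 2.08 and 2.11 in October, against 12.9, 13.4 and 13.5 in June (log2 difference -2.25, SE 0.11). MSX1, a homeobox target of BMP signals in development, had 5.99, 6.11 and 7.50 in October, against 27.5, 30.1 and 28.8 in June (log2 difference -1.99, SE 0.10), in the opposite direction to its paralog MSX2, which had 36.3, 33.9 and 38.2 in October, against 13.8, 12.6 and 13.1 in June (log2 difference 1.39, SE 0.056). Positional genes had 9 higher and 13 lower of 30 tested. EN1, engrailed 1, a homeobox gene of dermal fibroblast lineages, had 48.4, 53.7 and 51.8 in October, against 17.2, 18.0 and 19.9 in June (log2 difference 1.43, SE 0.059), and HOXC8 and HOXC6, the HOX genes with the highest levels, were higher by 0.48 and 0.63. TBX3 (-1.06) and HOXB7 (-0.94) were lower. In the retinoic acid list, ALDH1A3, an enzyme that makes retinoic acid, had 2.80, 2.17 and 2.33 in October, against 21.7, 21.6 and 19.5 in June (log2 difference -2.68, SE 0.084), and RARRES2, the chemerin precursor, was higher by 1.06. The list as a whole had 4 higher and 8 lower of 17 tested.

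Of 20 tested circadian clock genes, 5 were higher and 7 lower, close to the shares of all genes, 25.3% and 31.2%. RORA, a nuclear receptor of the clock, had 3.57, 3.62 and 4.12 in October, against 8.86, 9.41 and 9.17 in June (log2 difference -1.09, SE 0.081). NR1D1, which represses the same promoters, fell by 0.68, and HLF, a clock-controlled transcription factor, was higher by 0.68. Hormone receptor genes had 5 higher and 7 lower of 20 tested, also close to these shares. HSD11B1, the enzyme that regenerates active glucocorticoid, had 3.98, 3.76 and 3.93 in October, against 11.2, 9.44 and 11.0 in June (log2 difference -1.24, SE 0.10), and VDR, the vitamin D receptor, was higher by 0.67. The prolactin receptor PRLR and the melatonin receptor MTNR1A, which link hair growth to day length in goats and sheep, were among the genes below the level for testing.

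Inflammatory genes were lower across several lists. Chemokines and cytokines had 2 higher and 16 lower of 24 tested, with a median of -0.81. Beside CXCL8 and IL6, IL18 had 31.8, 36.1 and 43.9 in October, against 104, 94.5 and 79.8 in June (log2 difference -1.30, SE 0.11), and the chemokine scavenger ACKR3 fell by 1.01. IL33 and IL15, named after its values were seen, were the 2 higher members, IL15 by 0.92. NF-kB subunits and feedback inhibitors numbered 2 higher and 18 lower of 24 tested. The largest falls there were of the adhesion molecule ICAM1, with 0.72, 0.66 and 0.65 in October, against 4.24, 4.49 and 5.02 in June (log2 difference -1.73, SE 0.094), and TNFAIP2 (-1.55). The interferon response had 1 higher and 26 lower of 35 tested, with a median of -0.54. ISG15, a ubiquitin-like protein induced by interferon, had 14.0, 13.6 and 12.2 in October, against 73.2, 60.2 and 69.1 in June (log2 difference -2.26, SE 0.15). MX1, an antiviral GTPase, had 45.4, 39.9 and 41.1 in October, against 122, 123 and 125 in June (log2 difference -1.53, SE 0.051), and IRF1, an interferon-regulated transcription factor, fell by 1.42. IRF2, named after its values were seen, was the 1 higher member, by 0.39. Prostaglandin genes had 2 higher and 9 lower of 13 tested. PTGS2, the inducible cyclooxygenase, had 64.5, 67.9 and 66.1 in October, against 17.4, 16.8 and 16.4 in June (log2 difference 1.91, SE 0.06), and PLA2G4A, the phospholipase that supplies its substrate, had 52.2, 59.2 and 53.5 in October, against 14.8, 14.0 and 13.5 in June (log2 difference 1.89, SE 0.063), while PTGS1, the constitutive cyclooxygenase, had 1.44, 0.99 and 0.72 in October, against 3.70, 3.98 and 4.17 in June (log2 difference -1.29, SE 0.11) and the prostacyclin synthase PTGIS fell by 1.41. In the same direction, the synthase PTGES, the most abundant member of the list after PTGES3, had 83.4, 83.3 and 89.4 in October, against 164, 172 and 166 in June (-0.96). Complement genes numbered 2 higher and 5 lower of 9 tested. Immediate early genes had 8 higher and 16 lower of 31 tested, with FOSL1 (17.5, 17.6 and 17.1 in October, against 73.1, 77.2 and 76.6 in June) and KLF4 (-1.60) lower and FOSB higher by 1.09.

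Some markers of immune cells were lower as well. CD68, which is also counted in the lysosomal list below, had 6.12, 5.03 and 5.48 in October, against 18.9, 22.1 and 24.8 in June. CD14 had 4.63, 5.00 and 5.43 in October, against 14.2, 15.7 and 14.6 in June. The summed level of the immune list was 14.7 to 16.1 in the October libraries and 38.8 to 44.5 in the June libraries, and CD68 and CD14 made up most of it. The defining leukocyte markers PTPRC, CD3E, CD79A, AIF1 and MRC1 did not reach the level for testing. Of 6 tested members, 3 were lower and 0 higher. The part of these markers in the results was not tested.

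Lysosomal genes were lower, with 2 higher and 35 lower of 45 tested and a median of -0.51. CTSK, a collagen-degrading cathepsin, had 135, 133 and 129.5 in October, against 541, 527 and 518 in June (log2 difference -1.99, SE 0.037). GPNMB, a glycoprotein of lysosomes and melanosomes, had 15.6, 13.9 and 14.5 in October, against 92.8, 95.6 and 93.5 in June (log2 difference -2.60, SE 0.073). The oxidant and metal response had 3 higher and 23 lower of 29 tested, with a median of -0.60. PRDX1, a peroxiredoxin and the most abundant gene of the list, had 4563, 4459 and 4282 in October, against 9605, 9759 and 9318 in June (log2 difference -1.11, SE 0.041). GSTM3, a glutathione transferase, had 150.1, 136 and 146 in October, against 791, 736 and 792 in June (log2 difference -2.42, SE 0.053), and TXNRD1, thioredoxin reductase, fell by 1.27. Iron genes had 3 higher and 8 lower of 16 tested, and the ferritin light chain FTL fell by 1.20. Heat shock chaperones other than HSPA6 and CRYAB moved less, though 3 of the list, these included, fell by at least 2-fold and 0 rose so far. The list had 6 higher and 10 lower of 28 tested, and 3 higher and 16 lower with a common library total. Among its members HSPB1 fell by 0.68 and HSPB6 was higher by 0.88. In the endoplasmic reticulum stress and amino acid response, 12 were higher and 16 lower of 39 tested, with a median difference of -0.11. With a common library total 9 were higher and 21 lower. HSPA5, the chaperone BiP, fell by 0.62, and SESN2 and CHAC1, targets of the amino acid response, were higher by 0.91 and 0.87.

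Neuropeptide and axon guidance genes had 9 higher and 10 lower of 25 tested. NMU, SST and SCT, the secretin precursor with 5.47, 5.25 and 3.05 in October, against 27.3, 21.2 and 22.6 in June (log2 difference -2.17, SE 0.30), were the largest falls. The guidance molecules SEMA3D (1.93) and SEMA3E (1.49) were higher, and NTN1, netrin 1, fell by 1.39. TAC1, the substance P precursor, was not called, with 57.4, 63.8 and 60.4 in October, against 65.0, 58.8 and 56.3 in June (limma, difference 0.01, adjusted p = 0.923).

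Markers of other cell types moved in both directions. Endothelial markers had 0 higher and 3 lower of 5 tested, with a summed level of 48.9 to 54.1 in the October libraries and 76.5 to 81.1 in the June libraries. PECAM1, an adhesion molecule of vessels, had 0, 0 and 0.02 in October, against 2.07, 1.84 and 2.08 in June, and CDH5, VWF, KDR and TEK did not reach the level for testing. Melanocyte markers had 0 higher and 2 lower of 3 tested, with sums of 14.0 to 14.9 in October and 17.3 to 18.7 in June. Of these, PMEL (-0.69) and OCA2 (-0.88) were lower, and the pigment enzymes TYR, TYRP1 and DCT were below the level for testing. Schwann and neural markers had 1 higher and 3 lower of 4 tested, with sums of 58.5 to 65.2 in October and 87.9 to 91.1 in June, and NCAM1 fell by 1.36. SOX10 was below the level for testing. Adipocyte and sebocyte markers had 0 higher and 4 lower of 6 tested, with sums of 68.9 to 74.6 in October and 126 to 139 in June. Markers of interfollicular fibroblasts had 4 higher and 5 lower of 14 tested, with sums of 4272 to 4433 in October and 3904 to 3939 in June. The proteoglycan DCN, the most abundant of them over the 6 libraries, had 988, 1027 and 925 in October, against 963, 950.4 and 907 in June and was not called (limma, difference 0.06, adjusted p = 0.252). Activated fibroblast genes had 11 higher and 5 lower of 20 tested, among them CDH2, N-cadherin, with 74.8, 82.8 and 83.8 in October, against 30.0, 29.4 and 29.6 in June (log2 difference 1.41, SE 0.05). The part of these cell type markers in the other results was not tested.

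The month comparison in females asks which of these changes differ between the sexes. In secondary papilla cells of females 6699 genes (51.3%) were called between October and June. Of the 7378 genes called in males, 3714 were called in the same direction in females, which is 50.3% of the male and 55.4% of the female calls, and 814 in the opposite direction (11.0% and 12.2%). Across the 13049 genes the male and female differences correlated with r = 0.486. The difference between the 2 changes was itself called for 4917 genes, or 37.7%, with 2252 higher (17.3%) and 2665 lower (20.4%) in males (limma, Benjamini-Hochberg). With a common library total these became 1522 and 3852, as the median of all genes moved to -0.12.

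SOX2 rose in males and was not called in females, where it stood at 0, 0.30 and 0.70 in October and 0.42, 0.28 and 0.07 in June (limma, male minus female 3.53, adjusted p = 2.83e-12). UCHL1, a ubiquitin hydrolase of neurons, rose by 1.74 in males and differed by -2.65 in females, so that the 2 changes differed by 4.39. NR2F2 differed in the same way, with 2.87 in males and -1.03 in females. NRN1, neuritin, had differences of -0.25 in males and -3.65 in females, PROS1 of 1.75 and -1.51, and LY6E of 0.32 and -2.53. For ARHGEF5, a guanine nucleotide exchange factor, they were 1.51 and -1.80, and for PCDH7 2.46 and -0.67. On the other side, HSPA6, SST and MMP12 fell in males, and HSPA6 and MMP12 differed in females by -0.24 and -0.39. SST was listed at 0 in all 6 libraries of secondary cells of females. PERP differed by -1.03 in males and rose by 2.61 in females. MGP, matrix Gla protein, an inhibitor of calcification, had 2.18, 1.80 and 1.24 in October, against 8.09, 8.84 and 8.43 in June in males, and 7.80, 6.07 and 4.21 in October against 1.68, 1.13 and 1.17 in June in females. The others with large differences on this side were C1QTNF3, with 0.34 in males and 3.58 in females, COLEC12, a scavenger receptor, with -2.02 and 1.17, and WFDC2, with 0.63 and 3.73.

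Growth factor changes were also unequal between the sexes. IGF1 differed by 2.35 in males and -0.22 in females (limma, adjusted p = 7.28e-13 for the difference), and FGF7 by 2.41 and 0.79 (limma, adjusted p = 3.65e-10). CRABP1 had -0.90 in males and 1.86 in females (limma, adjusted p = 4.89e-08), and RORA -1.09 and 0.13 (limma, adjusted p = 1.44e-08). CXCL8 fell in both sexes, with -5.39 in males and -3.69 in females (limma, adjusted p = 2.02e-08), while WIF1 had -1.47 and -1.35 with no call for the difference (limma, adjusted p = 0.665). Epithelial markers moved further in females. KRT5 averaged 18.5 ± 1.29 in October and 0.0233 ± 0.0252 in June in males, and 197 ± 9.45 in October and 0.550 ± 0.114 in June in females (SD, n = 3 each), and for 25 of 31 tested keratinocyte and hair matrix genes the male change was called lower than the female one. These markers moved with the comparison of the sexes, and their part in it was not tested. Among the lists, with directions that held under both rescalings, mitosis genes had a median of -0.86 in males and -1.32 in females, and for 28 of 41 the male change was called higher. Ribosomal genes went apart, with medians of 0.34 and -0.19, and 68 of 74 called higher in males. For lysosomal genes the male change was called lower than the female one for 34 of 45 and higher for 1, with medians of -0.51 and -0.05. Collagens had medians of 0.43 and 0.06, with 15 of 25 called higher and 5 lower in males, beside 17.3% and 20.4% of all genes.

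**Figure D2:**
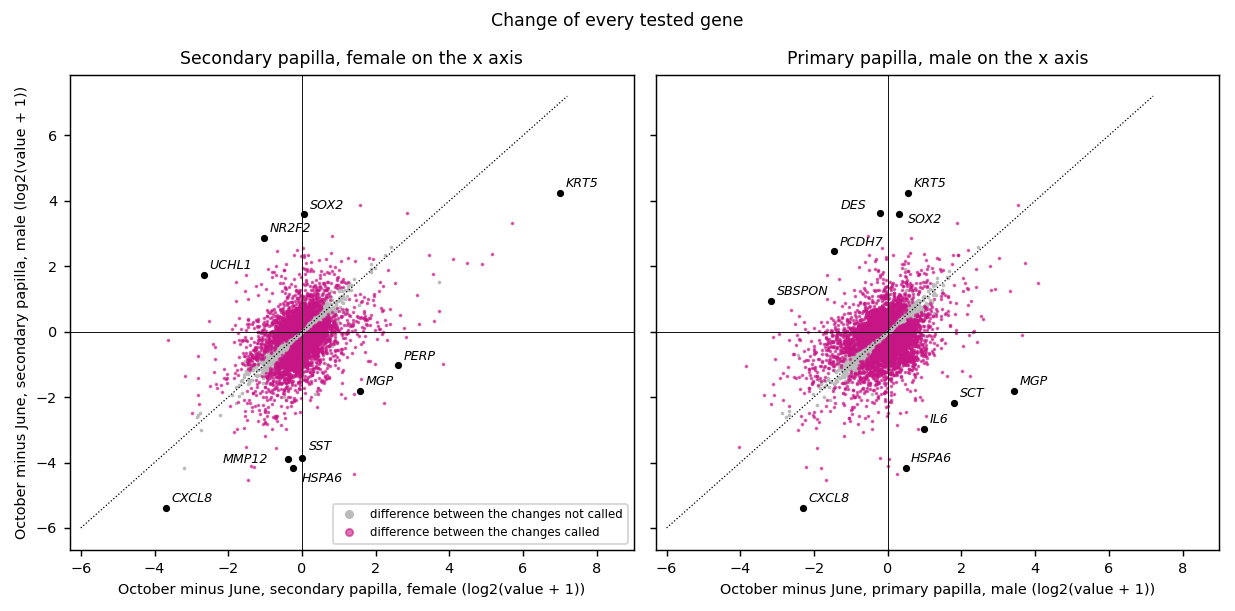
October minus June differences on the log2(value + 1) scale for every tested gene, in secondary papilla cells of males (y axis) against those in secondary cells of females (left) and in primary cells of males (right). Pink points are genes whose 2 changes differ at an adjusted p under 0.05, 4917 at the left and 5730 at the right, grey points are the others, and the dotted line marks equal change. SOX2 lies high on the y axis and near 0 on both x axes, and MGP lies below 0 on the y axis and above 0 on both x axes.

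The same months in primary papilla cells of males show which changes were shared between the follicle types as labelled. In primary cells 7241 genes (55.5%) were called. Of the genes called in secondary cells, 3628 were called in the same direction in primary cells (49.2% of the secondary and 50.1% of the primary calls), and 1116 in the opposite direction (15.1% and 15.4%), with r = 0.434 across the 13049 genes. The 2 changes differed for 5730 genes, or 43.9%, with 2821 (21.6%) changed upwards and 2909 (22.3%) downwards relative to primary cells (limma, Benjamini-Hochberg). With a common library total these became 1556 and 4930, as the median of all genes moved to -0.17.

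The cell cycle went in opposite directions. Mitosis genes had a median of -0.86 in secondary cells and 0.65 in primary cells, and for 41 of 41 the change was called lower in secondary cells, beside 22.3% of all genes. Replication genes had medians of -0.47 and 0.65, with 39 of 42 called lower. MKI67, the proliferation marker, shown after its values were seen, averaged 8.37 ± 0.294 in October and 17.6 ± 0.884 in June in secondary cells, and 6.30 ± 0.180 in October and 3.55 ± 0.312 in June in primary cells of males (SD, n = 3 each). In June the secondary level was therefore above the primary one, and in October the 2 were closer. CDCA8 had differences of -1.07 in secondary and 0.69 in primary cells.

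SOX2, given above for secondary cells, stood at 17.9, 14.8 and 15.0 in October and 11.6, 14.5 and 12.1 in June in primary cells of males, so that the October secondary libraries lay in the range of the primary ones while the June secondary libraries lay far below (limma, secondary minus primary 3.29, adjusted p = 6.5e-12). IGF2 averaged 11.5 ± 1.16 in October and 0.640 ± 0.164 in June in secondary cells, and 17.9 ± 1.37 in October and 26.3 ± 2.00 in June in primary cells (SD, n = 3 each). DES differed by 3.63 in secondary and -0.20 in primary cells, KRT5 by 4.25 and 0.55, and UCHL1 by 1.74 and -1.64. SBSPON, a secreted protein with somatomedin B and thrombospondin domains, had differences of 0.95 and -3.16, PCDH7 of 2.46 and -1.46, and KCTD12, an auxiliary subunit of GABA-B receptors, of 0.66 and -2.62. MGP went in opposite directions, with -1.80 in secondary and 3.44 in primary cells, where it had 39.4, 30.8 and 29.2 in October and 2.78, 2.55 and 1.28 in June. IL6 had -2.97 in secondary cells and rose by 0.99 in primary cells, and MMP3 (0.83) and SCT (1.80) rose in primary cells as well. HSPA6, EREG and MMP12, which fell in secondary cells, differed in primary cells by 0.49, 0.0041 and 0.02. For keratinocyte and hair matrix genes the secondary change was above the primary one in 11 and below it in 5 of 31 as deposited, and in 8 and 7 with a common library total, and their part in this comparison was not tested.

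IGF1 rose in both follicle types, by 2.35 in secondary and 1.91 in primary cells (limma, adjusted p = 0.0108 for the difference), and FGF7 by 2.41 and 0.59 (limma, adjusted p = 4.08e-11). SERPINF1 had 3.86 and 3.53 (limma, adjusted p = 0.0173). The differences between follicle types for IGF1 and SERPINF1 were lost with a common library total (limma, adjusted p = 0.110 and 0.225). WIF1 differed by -1.47 and 0.70 (limma, adjusted p = 1.27e-09), RSPO2 by -0.41 and -2.50 (limma, adjusted p = 9.25e-15), and BMP4 by -0.43 and 0.43 (limma, adjusted p = 2.12e-06). For lysosomal genes the medians were -0.51 in secondary and -0.38 in primary cells, with 18 of 45 called lower in secondary cells and 6 higher. Interferon genes had -0.54 and -0.36, with 13 of 35 called lower in secondary cells and 3 higher. The ribosomal difference between follicle types depended on the scaling. As deposited, the change in secondary cells was above that in primary cells for 33 of 74 and below it for 1, with a median of 0.17, and with a common library total 7 were higher and 6 lower, with a median of -0.01.

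**Figure D3:**
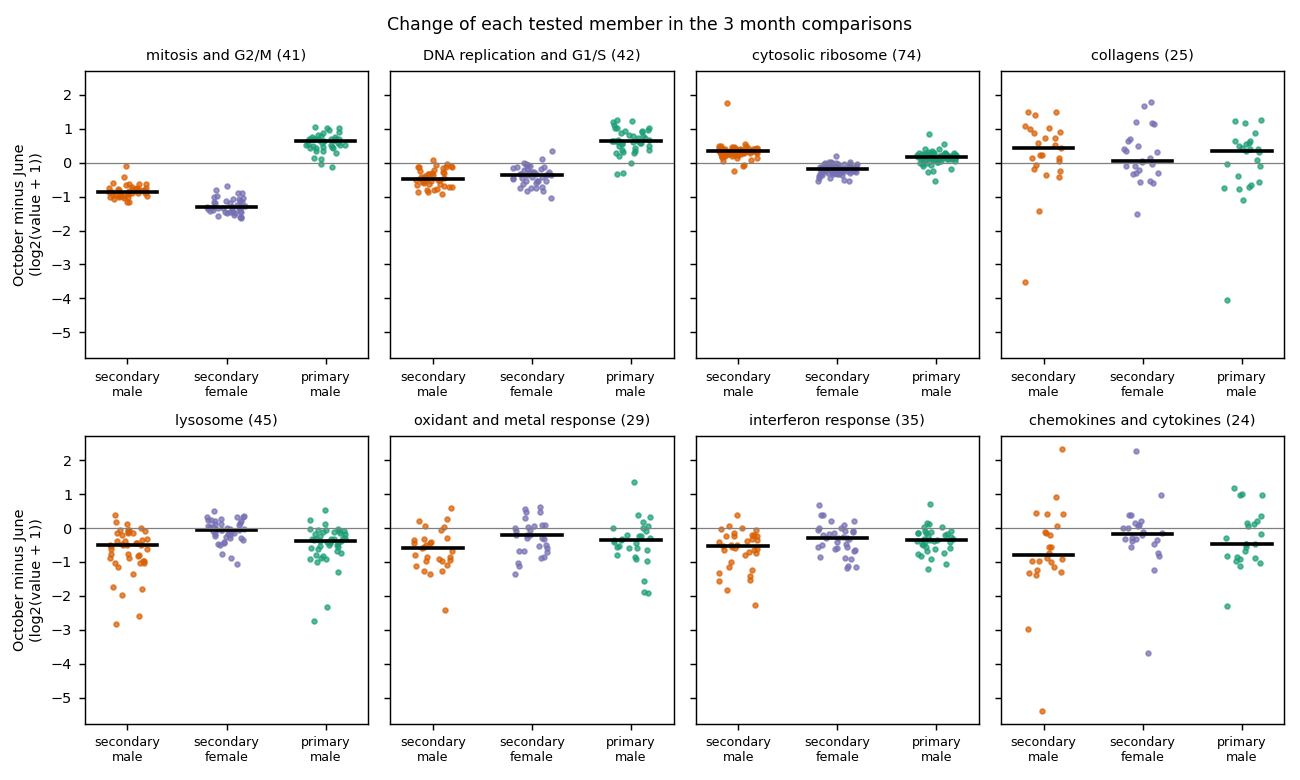
October minus June differences on the log2(value + 1) scale of each tested member of 8 gene lists, in secondary cells of males, secondary cells of females and primary cells of males. Points are genes, bars are medians, and the number of genes is in brackets. Mitosis genes lie below 0 in both secondary comparisons, with medians of -0.86 and -1.32, and above 0 in primary cells, with 0.65, and ribosomal genes lie above 0 in secondary cells of males, with 0.34, and below 0 in females, with -0.19.

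**Figure D4:**
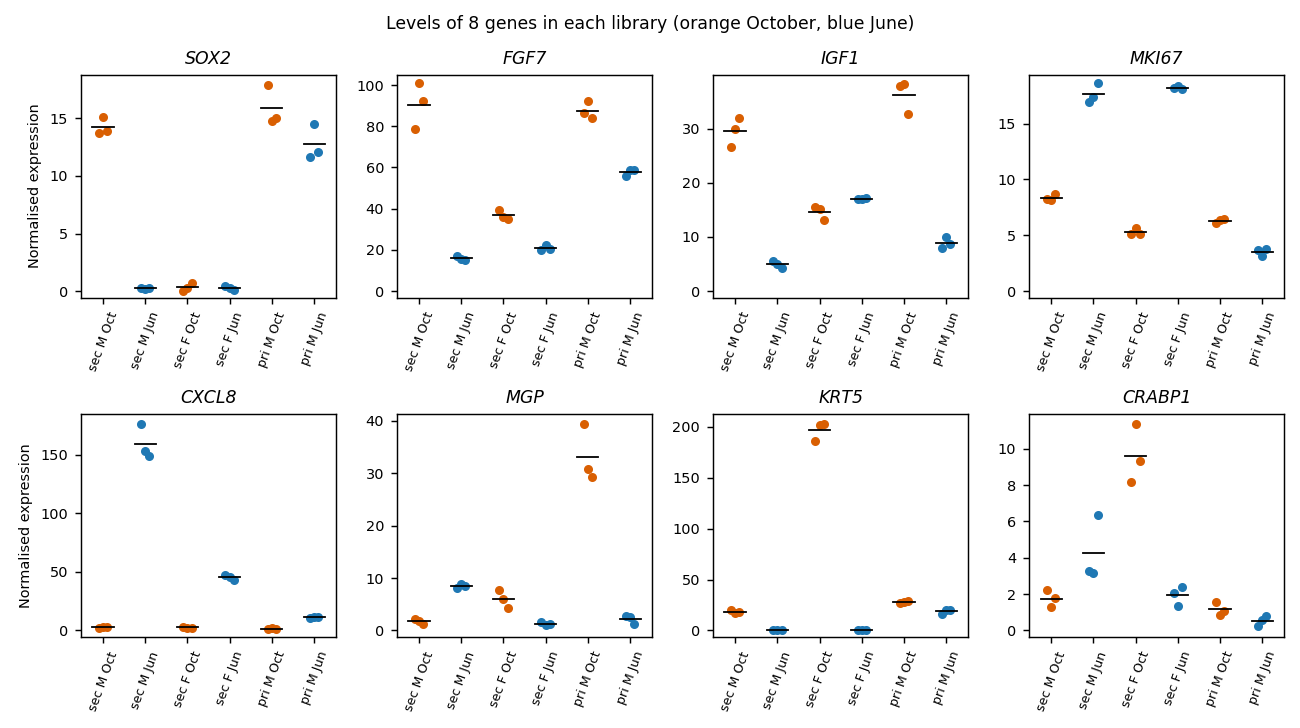
Normalised expression of 8 genes in each library of secondary males (sec M), secondary females (sec F) and primary males (pri M), with October (orange) left of June (blue) in each pair. Points are libraries and lines are means of 3, and each panel has its own scale. SOX2 in secondary males in October, at 13.7, 15.1 and 13.9, stands with the primary libraries, while SOX2 in the other secondary libraries is below 1, and CXCL8 is lower in October than in June in the 3 pairs.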

How the data were processed

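RNA from papilla cells was extracted with a TRIzol-type reagent and sequenced as paired-end libraries, per the labels' protocols. The authors deposited 1 file per library with a normalised expression signal for 20326 genes, with 2 decimals and no unit named. Per the submitters' processing notes kallisto 0.46.1 and sleuth 0.30.0 were used; no source used here gives their roles, the reference or a strand setting. The read depth is unknown, so no counting interval is given. The 13049 genes that reached 1 in no fewer than 3 of the 24 libraries were fitted with limma 3.58.1 in R 4.3.3 (statmod 1.5.0, robust, variance trend) on log2(value + 1), with 1 mean for each of the 8 groups, and p-values were adjusted by Benjamini and Hochberg over these genes. The fit was tested on simulated data. Both interactions were contrasts in the same fit. The mitochondrial share was compared by exact permutation. Of the gene IDs, 20294 matched the RefSeq gene table of the goat assembly.

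The comparison and the 56 gene lists (1722 genes) were chosen with earlier results of these data known. Genes named in the text were the 15 largest rises and falls, the 8 largest each way for both interactions (called, with a symbol, mean of at least 5), up to 6 called and 3 most abundant members of each list, the tested cell type markers, and a short list of papilla genes, with exceptions marked. Lists are described by counts of called members and medians, with no test. Alternatives changed the filter, pseudocount, scaling, spread estimate, samples fitted, replicate block and fold, and left out each library in turn. A few genes are not reported here.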

Additional observations from a re-analysis of the deposited data

Results flagged for a closer look

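The October against June change of secondary papilla cells differed between males and females for 4917 genes and, in males, between secondary and primary cells for 5730 genes, by a test of the difference itself in each case (limma, adjusted p under 0.05). The genes below have the largest such differences among called genes that carry a symbol and average 5 or more in some compared group, 8 in each direction. SST was listed at 0 in the October libraries of males, and its values depend on the pseudocount of 1.

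The male change was above the female one by 4.39 for UCHL1, 3.90 for NR2F2, 3.53 for SOX2, 3.39 for NRN1 and 3.31 for ARHGEF5 on the log2 scale. It was above by 3.26 for PROS1, 3.13 for PCDH7 and 2.85 for LY6E. For the genes on the other side, the male minus female value was -3.92 for HSPA6, -3.85 for SST, -3.65 for PERP and -3.52 for MMP12. It was -3.37 for MGP, -3.25 for C1QTNF3, -3.20 for COLEC12 and -3.10 for WFDC2.

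Between follicle types in males, the change in secondary cells was above that in primary cells by 4.11 for SBSPON, 3.92 for PCDH7, 3.84 for DES and 3.70 for KRT5. It was above by 3.46 for IGF2, 3.38 for UCHL1, 3.29 for SOX2 and 3.28 for KCTD12. The secondary minus primary value was -5.24 for MGP, -4.65 for HSPA6, -4.10 for EREG and -3.97 for SCT, and -3.95 for IL6, -3.93 for MMP12, -3.80 for MMP3 and -3.65 for SST. SOX2, PCDH7 and UCHL1 appear among the 8 highest in both comparisons, and MGP, HSPA6, MMP12 and SST among the 8 lowest in both. The 2 comparisons share the 6 libraries of secondary males.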

How the results depend on the processing

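The counts of called genes stayed within 1.5 times under every alternative except the added requirement of a 2-fold change. That left 823 genes for the month comparison, 695 for male minus female and 869 for secondary minus primary, since it removes small changes by construction. Leaving out each library in turn gave 6696 to 6963, 4407 to 4766 and 5172 to 5569 genes, and the mitochondrial share differed by 0.685 to 1.05 percentage points (exact permutation p between 0.1 and 0.2, where 2 libraries against 3 can go no lower than 0.1). No filter gave 8186 genes for the month comparison. The replicate block gave 7532, 5106 and 5914 genes. October and June libraries with the same number deviated from their group means with r of -0.19, -0.11 and -0.0047. Pairs with different numbers ranged from -0.21 to 0.28. With so few libraries this cannot tell whether libraries with the same number share anything, and the labels do not say.

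Of 240 gene values in the text, 227 kept their direction and their side of the threshold throughout. With a common library total, the uncalled differences of DCN (-0.029), RSPO3 (-0.080) and TAC1 (-0.074) changed sign, while NOG (-0.33) and TAGLN (-0.19) became called. Leaving out libraries moved TAC1 between -0.031 and 0.070, RSPO3 between -0.0080 and 0.021, and the male minus female value of WIF1 between -0.23 and 0.0063; the cause was not tested. NOG was also called without June library 2 (-0.39). The month calls of LY6E, NRN1, WFDC2 and LEF1 in secondary males were lost without 1 or more single libraries, and so was the secondary minus primary call of SERPINF1 without secondary June library 1 (0.23) or primary June library 2 (0.23). The depth behind the values is unknown, so whether it limits weakly expressed genes was not tested.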
